A study of Mus musculus with 12 samples.

Results

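The 10 genes described here are those of de novo fatty acid synthesis in liver: Acly, Acss2, Acaca, Acacb, Fasn, Me1, Srebf1, Mlxipl, Thrsp and Pnpla3. They were listed by name for their role in the route, with earlier results of these data known, and are 10 of the 22322 gene symbols in the deposited tables. For each symbol the transcript with the highest mean RPKM over the samples was used. RPKM divides reads by the length of the transcript and by the depth of the library. Levels of different genes can be compared only roughly, as how reads shared by transcripts of a gene were split is unknown. RNA of 12 mouse livers was sequenced in 4 groups of 3, from male C57BL/6 mice aged 8 weeks that were wild type (WT) or lacked Bmal1 in liver (KO), killed at circadian time 0 (CT0) or 12 (CT12). The WT mice carried 2 floxed copies of Bmal1 (Arntl). The KO mice were floxed mice bred to carry a CRE recombinase under a liver-specific promoter, which removes exons of the DNA-binding domain. No CRE is stated for WT, so effects of CRE and of Bmal1 loss cannot be told apart. All mice had food at all times and spent their last 2 days in darkness, and CT0 is when the lights would have come on. Their food intake is not given in the sources used here. The titles give 3 replicates per group while a label names 2 mice. If they are not separate mice, p-values measure only the spread between samples.

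De novo lipogenesis turns surplus glucose into fatty acids. Citrate leaves the mitochondrion and is cleaved to acetyl-CoA, which is carboxylated to malonyl-CoA and built into palmitate with reducing power from NADPH. In liver the genes of this route rise together after feeding, when insulin acts through SREBP-1c and glucose through ChREBP, and fall together in fasting. The route is known for its daily rhythm, in which both the clock and the feeding time take part. BMAL1 pairs with CLOCK to activate genes through the E-box CACGTG.

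The promoters of Fasn, the synthase gene, and of Thrsp and Mlxipl, both lower in KO at CT12, are shown because SREBP and ChREBP work with ubiquitous factors close to the start site. For Mlxipl the upstream of its promoters is shown. Sequences are from RefSeq on GRCm38.p6, which differs from the build of the expression files, and cover 250 bases before to 50 after each start. Capitals mark the E-box (CACGTG), the sterol regulatory element (SRE, TCACNCCAC) and the CCAAT box (CCAAT), searched on both strands.
Fasn, chr11:120824498-120824797, minus strand: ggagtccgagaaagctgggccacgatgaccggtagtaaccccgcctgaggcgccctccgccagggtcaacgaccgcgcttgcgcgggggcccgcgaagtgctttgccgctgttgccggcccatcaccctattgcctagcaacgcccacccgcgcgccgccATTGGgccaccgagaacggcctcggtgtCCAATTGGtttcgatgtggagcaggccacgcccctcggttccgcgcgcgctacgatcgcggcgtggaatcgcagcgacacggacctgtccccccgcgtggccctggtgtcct
Thrsp, chr7:97417501-97417800, minus strand: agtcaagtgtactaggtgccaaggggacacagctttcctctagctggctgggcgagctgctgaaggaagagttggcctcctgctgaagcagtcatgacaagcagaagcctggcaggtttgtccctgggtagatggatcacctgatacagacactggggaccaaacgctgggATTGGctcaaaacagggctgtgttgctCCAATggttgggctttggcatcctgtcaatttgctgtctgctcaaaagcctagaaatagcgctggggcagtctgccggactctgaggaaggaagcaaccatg
Mlxipl, chr5:135089640-135089939, plus strand: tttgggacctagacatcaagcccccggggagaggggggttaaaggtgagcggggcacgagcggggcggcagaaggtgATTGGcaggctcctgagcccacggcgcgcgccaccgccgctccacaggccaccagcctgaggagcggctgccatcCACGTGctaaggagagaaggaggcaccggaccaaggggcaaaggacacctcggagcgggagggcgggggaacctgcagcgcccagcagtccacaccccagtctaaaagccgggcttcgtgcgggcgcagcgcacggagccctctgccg
The Fasn promoter held CCAAT at -90, -62 and -59 from the start site, the last pair of matches being on opposite strands and sharing bases within CCAATTGG. In the Thrsp promoter CCAAT stood at -79 and -52. The Mlxipl promoter shown, the upstream one, was the single one of 14 promoters of the 10 genes with a CACGTG, at -98. The other Mlxipl promoter, downstream of it, held the single SRE, at -136. Which of them gave the Mlxipl level used here is not known, as the transcript used lies in the 3' part of the gene. CCAAT was found in 10 of the 14 promoters, against 37.41% of the 32851 promoters in the table. CACGTG was found in 7.15% of all promoters and the SRE in 1.24%. The GC box (GGGCGG, either strand, not in capitals) was in 7 of 14 and in 35.66% of all. No motif overlapped one of another kind. These are matches of letters and not measured binding.

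The depth recovered from the step between low values was 11470000 to 19020000 reads per liver, which makes the error of counting small for all members but Pnpla3. Arntl, read over its whole transcript and so not only over the deleted exons, was at 15.9 ± 0.370 RPKM (SD, n = 3) in WT and 6.37 ± 0.944 in KO at CT0, and at 1.05 ± 0.320 and 3.99 ± 0.391 at CT12. All 7 hepatocyte markers were present in each liver. Of 7 adipocyte markers, Lep and Retn were at 0 in all 12 livers, Adipoq and Plin1 in 11 and Cfd in 9, while Fabp4 (4.45 to 16.5 RPKM) and Car3 (432 to 1862) were above 0 in all. Hepatocyte markers summed to between 45787 and 50995 RPKM in WT and between 29899 and 34866 in KO at CT0, and to between 38343 and 46850 in WT and between 26233 and 29658 in KO at CT12. Alb was the largest marker in each of these sums, at 14012 to 37868 RPKM over the 12 livers. The others were lower, such as Apoa1 (2729 to 5015), Ttr (2567 to 3672) and Apob (1376 to 1637). The sums thus do not show whether each hepatocyte marker differed between genotypes. Summed levels of other lists also differed between genotypes without overlap. The adipocyte list, nearly all of it Car3, which hepatocytes also express, summed to between 1033 and 1872 RPKM in WT and 578 and 860 in KO at CT0, and to between 1090.0 and 1155 and 438 and 535 at CT12. The cholangiocyte list, nearly all of it Spp1, was at 48.6 to 64.8 RPKM in WT and 93.1 to 152 in KO at CT0, and at 27.2 to 49.97 and 88.4 to 124 at CT12. The pancreatic acinar list, nearly all of it Cela1 and with Cpa1, Pnlip and Ctrb1 at 0 in all livers, was at 6.71 to 10.6 RPKM in WT and 15.1 to 19.8 in KO at CT0, and at 3.82 to 6.61 and 13.9 to 21.7 at CT12. The stellate list was at 92.7 to 109 RPKM in WT and 116 to 150.4 in KO at CT12 and overlapped at CT0, and the Kupffer cell, endothelial and lymphocyte lists overlapped at both times. The part of these differences in the results was not tested. In bulk liver, fewer cells of a type and less RNA per cell cannot be told apart.

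Members differed most between single livers. KO CT0 replicate 1 had the highest level of 9 of the 10 genes among the 12 livers, the exception being Srebf1, and WT CT12 replicate 2 had the highest Srebf1 and the highest level of all 10 within its own group. Because 1 of 3 livers so departs in these groups, their values are given singly, and the differences given for the members that use KO at CT0 are given with and without KO CT0 replicate 1. Leaving out a liver was chosen as an alternative with earlier results known.

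**Figure D1:**
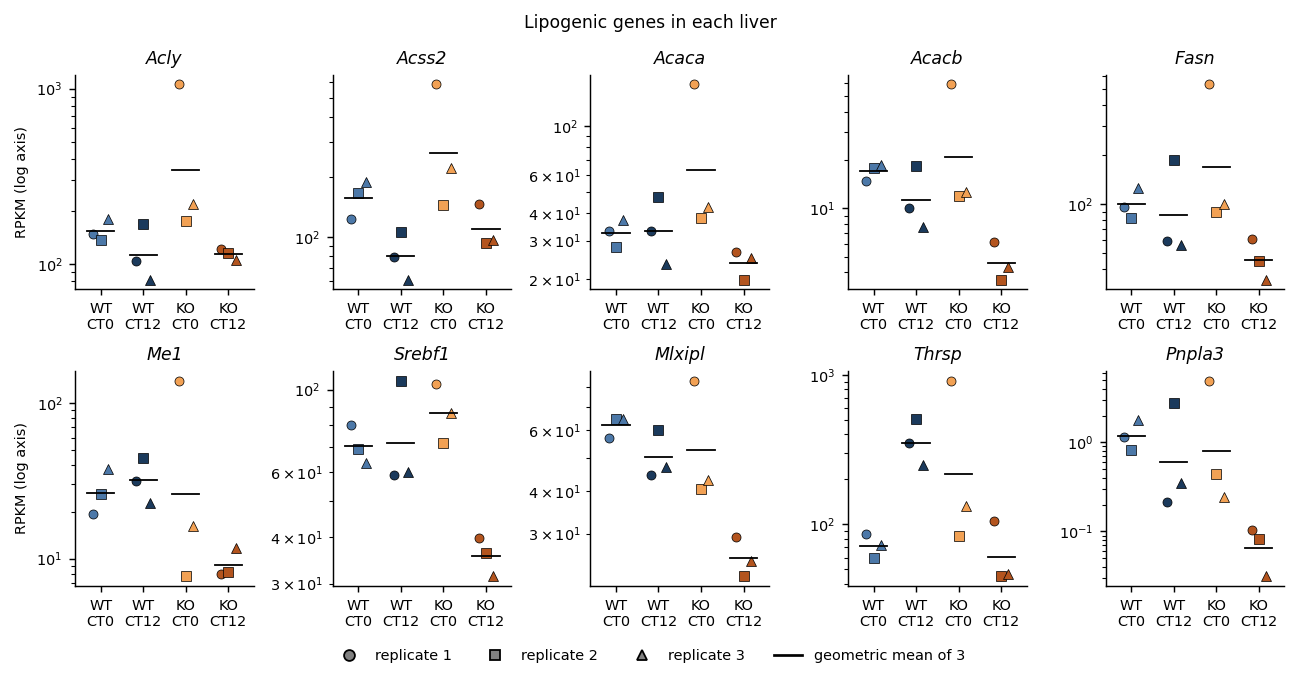
RPKM on a log axis of the 10 genes in each of the 12 livers, by group; symbols mark the replicate number and lines the geometric mean of 3. KO CT0 replicate 1 stands above its group in each panel, as at 1059 RPKM for Acly beside 177 and 220.1, and KO at CT12 lies low for most genes.

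The 4 group means were compared by limma on log2(RPKM + 1) over all 10799 genes that reached 1 RPKM on average in some group, and all 10 members were among them. Differences below are on that scale, and adjusted p-values are over all genes tested. Between genotypes at CT12, 3 of the 10 genes were lower in KO (Srebf1, Mlxipl and Thrsp) and none was higher, against 3.49% of all genes called lower. Without overlap between the groups, 6 of 10 were lower in KO at CT12, against a background of 8.39%. At CT0 none of the 10 was called in limma (1.86% of all genes), and 3 had an unadjusted p under 0.05 (14.2% of all genes). Acaca was the 1 gene without overlap there, higher in KO (11.3% of all genes). From CT0 to CT12, 2 of 10 fell in KO (Srebf1 and Mlxipl), against 1.32% of all genes. There, 7 of 10 were lower without overlap, against 11.4%. In WT none of the 10 was called between times by limma (11.6% of all genes) and 2 had an unadjusted p under 0.05 (26.9%). Without overlap, 1 was higher at CT12 (11.2%) and 1 lower (22.9%). The interaction, which is the change with time in KO minus that in WT, called none of the 10 in limma (1.49%), and 4 had an unadjusted p under 0.05 (12.3%). Averaged over both times, 1 gene (Mlxipl) was lower in KO, against 4.03% of all genes. At an unadjusted p under 0.05 the members were 5 at CT12 (24.9% of all genes), 8 with time in KO (19.9%) and 2 averaged over times (25.4%). The median difference of the 10 genes was -0.92 for KO against WT at CT12, beside 0.08 for all genes, and 0.52 beside 0.01 at CT0. Without KO CT0 replicate 1 the CT0 median was 0.038 beside -0.0077 for all genes, with 5 members above 0 and 5 below. From CT0 to CT12 the median was -1.41 in KO, beside -0.002 for all genes, and -0.76 without that liver, beside 0.015, with all 10 below 0 both ways. In WT it was -0.24, beside -0.07. The genotype median at CT12 and the WT median include WT CT12 replicate 2, the highest of its group for all 10 genes. Neither median was taken without that liver. Without it, 1 of the 10 was called lower in KO at CT12 by limma. Comparisons that share a group are not independent of each other.

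**Figure D2:**
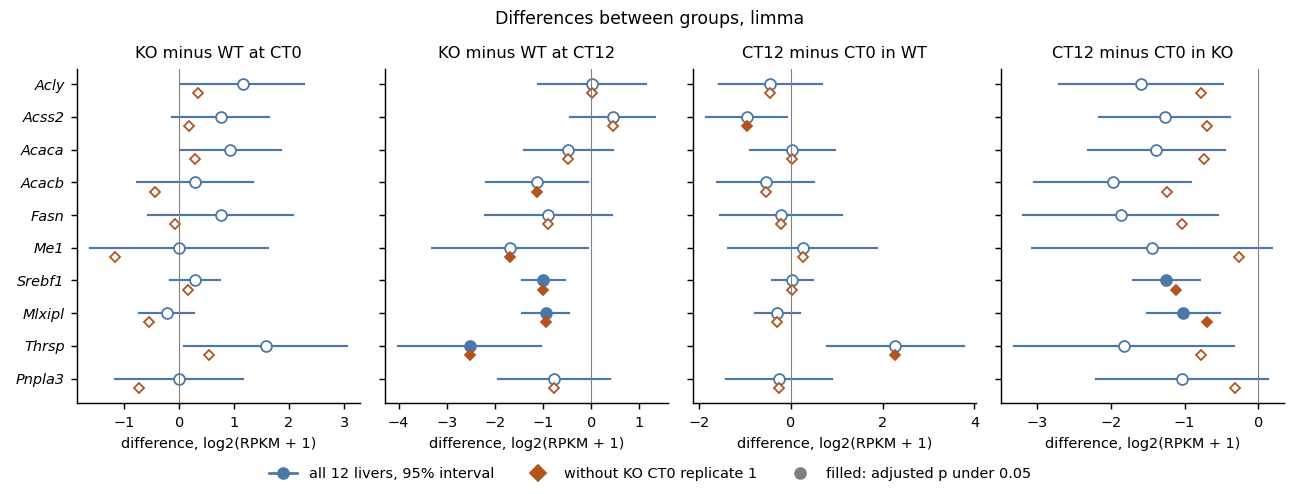
Differences in log2(RPKM + 1) from limma for each gene (rows) in 4 comparisons (panels), as circles with 95% intervals for all 12 livers and diamonds without KO CT0 replicate 1; filled marks have an adjusted p under 0.05. At CT12, Srebf1 (-0.99), Mlxipl (-0.95) and Thrsp (-2.52) were lower in KO with all livers, and Me1 and Acacb were also called without that liver.

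Acly and Acss2 make the acetyl-CoA that the route starts from. ATP citrate lyase, encoded by Acly (chromosome 11, 100337667 to 100389314, minus strand, NCBIM37), cleaves citrate in the cytosol. Its levels in WT were 149, 138 and 181 RPKM at CT0 and 105, 169 and 81.6 at CT12. KO livers had 1059, 177 and 220.1 RPKM at CT0 and 122, 115 and 106 at CT12. The first KO liver at CT0 was far above the rest, 1 of the other 2 lay within and 1 above the range of WT at CT0, and KO at CT12 lay within the range of WT at CT12. The difference between genotypes was 1.15 at CT0 (limma, adjusted p = 0.332) and 0.012 at CT12 (95% interval -1.10 to 1.13). At CT0 it was 0.35 without the high liver.

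Acss2 (chromosome 2, 155343684 to 155411460, plus strand) encodes the enzyme that makes acetyl-CoA from acetate. WT livers had 123, 166 and 189 RPKM at CT0 and 79.3, 105 and 60.9 at CT12, so that each CT12 liver was below each CT0 liver. KO livers had 583, 144 and 222 RPKM at CT0 and 146, 93.4 and 96.2 at CT12, where the highest CT12 liver just passed the lowest CT0 liver. The change from CT0 to CT12 in WT was -0.97 (SE 0.41, limma, adjusted p = 0.149). It passed the threshold when KO CT0 replicate 1 was left out of the shared estimate of spread (adjusted p = 0.0274, limma, range over alternatives 0.018 to 0.365), with the same difference. In all it passed in 4 of 21 alternatives. At CT12 Acss2 and Acly were the 2 members not lower in KO by their difference, at 0.45 for Acss2 (95% interval -0.44 to 1.34).

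The carboxylases are the step that commits acetyl-CoA to fatty acids. Acaca (chromosome 11, 83943174 to 84215153, plus strand) encodes ACC1, the cytosolic form that feeds synthesis. It was at 33.2, 28.1 and 37.5 RPKM in WT at CT0 and 33.3, 47.4 and 23.4 at CT12. The KO livers stood at 155, 38.04 and 42.5 RPKM at CT0 and 26.6, 19.9 and 25.01 at CT12. Each KO liver at CT0 was above each WT liver at CT0, narrowly so for the closest pair, and also above each KO liver at CT12. The genotype difference at CT0 was 0.93 (limma, adjusted p = 0.347), and it was 0.29 without KO CT0 replicate 1. From CT0 to CT12 in KO the difference was -1.38 (limma, adjusted p = 0.105), and -0.74 without that liver.

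Acacb (chromosome 5, 114596544 to 114700770, plus strand) encodes ACC2 of the mitochondrial surface, whose malonyl-CoA restrains fatty acid oxidation. Levels were 14.8, 17.9 and 18.5 RPKM in WT at CT0 and 10.02, 18.3 and 7.65 at CT12. KO livers had 59.1, 11.9 and 12.6 RPKM at CT0 and 6.17, 3.59 and 4.31 at CT12. The KO livers at CT12 were the 3 lowest of the 12, below all WT livers at the same time and all KO livers at CT0. The difference between genotypes at CT12 was -1.13 (limma, adjusted p = 0.172), and the change with time in KO was -1.97 (adjusted p = 0.0579). Without KO CT0 replicate 1 the change with time in KO was -1.25 (limma, adjusted p = 0.0561), and the genotype difference at CT12 passed the threshold at the same size (limma, adjusted p = 0.0148, range over alternatives 0.0148 to 0.41). That CT12 difference passed in 2 of 21 alternatives. For Acaca the CT12 difference was -0.48 (95% interval -1.40 to 0.45) and was not called, and the difference between the 2 genes was not tested.

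Fasn (chromosome 11, 120667254 to 120685492, minus strand) encodes fatty acid synthase, the single large enzyme that builds palmitate. In WT it was at 96.05, 81.8 and 125 RPKM at CT0 and at 59.4, 185 and 56.4 at CT12, the second CT12 liver being more than 3 times the others. In KO it was at 536, 89.02 and 100.01 RPKM at CT0 and at 60.9, 44.8 and 34.6 at CT12. All KO livers at CT12 lay below all KO livers at CT0, and overlapped WT at CT12 through 1 liver. No Fasn difference passed the threshold. That between genotypes at CT12 was -0.89 (95% interval -2.21 to 0.43), and that from CT0 to CT12 in KO was -1.87 (limma, adjusted p = 0.12). The latter was -1.03 without KO CT0 replicate 1 (limma, adjusted p = 0.235). At CT0 the genotype difference was 0.76 with all livers and -0.076 without KO CT0 replicate 1, so its direction rested on that liver.

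Me1 (chromosome 9, 86474970 to 86589947, minus strand) encodes cytosolic malic enzyme, a source of NADPH for the synthase. Its WT levels were 19.3, 25.9 and 37.6 RPKM at CT0 and 31.6, 44.6 and 22.9 at CT12. The KO levels were 139, 7.72 and 16.2 RPKM at CT0 and 7.96, 8.21 and 11.7 at CT12. Apart from KO CT0 replicate 1, which was the highest of all 12, every KO liver was below every WT liver, at either time. With that liver the differences were -1.69 at CT12 (limma, adjusted p = 0.18) and -0.0014 at CT0 (95% interval -1.62 to 1.62). Left out, the CT12 difference was called, as in 3 of 21 alternatives in all (adjusted p = 0.00473, limma, range over alternatives 0.00417 to 0.355). The CT0 difference was then -1.18, which did not pass (limma, adjusted p = 0.168), and the average over both times was -1.43, against -0.85 with all livers (limma, adjusted p = 0.0025, range 0.0025 to 0.606). That average was called in 2 of 20 alternatives.

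The transcription factor genes departed least in KO CT0 replicate 1, and the calls for Srebf1 held in each alternative. Srebf1 (chromosome 11, 60012591 to 60036083, minus strand) encodes SREBP-1a and SREBP-1c, the latter being the main insulin-responsive activator of these enzymes in liver. In WT livers it was at 80.2, 69.2 and 63.5 RPKM at CT0 and at 58.8, 106 and 60.03 at CT12. In KO livers it was at 104, 71.6 and 86.2 RPKM at CT0 and at 39.7, 36.3 and 31.4 at CT12. The 3 KO livers at CT12 were the lowest of all 12, and the groups at CT0 overlapped. Srebf1 was lower in KO at CT12 by a difference of -0.99 (SE 0.21, limma, adjusted p = 0.00944). It fell in KO from CT0 to CT12 by -1.25 (SE 0.21, limma, adjusted p = 0.0134), while in WT the change was 0.027 (95% interval -0.42 to 0.48). Both calls passed in all 21 other ways of processing the data, with adjusted p-values from 0.00791 to 0.0409 for the first and from 0.00277 to 0.0498 for the second. The interaction was -1.28 and did not pass (limma, adjusted p = 0.0595). Without KO CT0 replicate 1 the fall in KO was -1.12 and the interaction -1.15.

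Mlxipl (chromosome 5, 135582761 to 135614254, plus strand) encodes ChREBP, the factor that answers glucose. The transcript used is short, at 542 bases in the 3' part of the gene, and the full transcript of 3638 bases gave a like departure of KO CT0 replicate 1. WT levels were 56.8, 64.8 and 64.6 RPKM at CT0 and 44.5, 60.3 and 46.8 at CT12. KO levels were 83.7, 40.6 and 43.1 RPKM at CT0 and 29.4, 22.6 and 24.98 at CT12. KO at CT12 again held the 3 lowest livers, and 2 of the 3 KO livers at CT0 were below all WT livers of either time. The genotype difference at CT12 was -0.95 (SE 0.23, limma, adjusted p = 0.0202). It was lost without WT CT12 replicate 2 (0.0736), KO CT12 replicate 2 (0.0739) or KO CT12 replicate 3 (0.0585, adjusted p, limma) and passed in the other 18 of 21 alternatives, from 0.000684 to 0.0739 in all. The fall with time in KO was -1.02 (limma, adjusted p = 0.0395), a call that 9 of 21 alternatives kept, and the averaged genotype difference of -0.59 (adjusted p = 0.0338) was kept by 11 of 20. Without KO CT0 replicate 1 these were -0.69 and -0.75, and both passed.

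Thrsp (chromosome 7, 104561448 to 104566240, minus strand) encodes Spot 14, a small protein induced by thyroid hormone and by carbohydrate that goes with lipogenic rate. It was the member with the largest difference by time in WT, at 86.1, 59.5 and 72.5 RPKM at CT0 and 348, 505 and 248 at CT12, with no overlap. In KO it was at 912, 82.9 and 133 RPKM at CT0 and at 105, 45.1 and 46.8 at CT12. All KO livers at CT12 were below all WT livers at CT12, and overlapped WT and KO at CT0. Thrsp was lower in KO at CT12 by a difference of -2.52 (SE 0.68, limma, adjusted p = 0.0353). That call was lost without the filter on low values (0.0791), without replicate 1 (0.0837), 2 (0.108) or 3 (0.0594) of WT CT12, and without KO CT12 replicate 2 (0.112) or 3 (0.107, adjusted p, limma). It was kept by the other 15 of 21 alternatives. The smallest adjusted p, 0.000655 (limma), came without KO CT0 replicate 1. The change with time in WT was 2.27 (SE 0.68, limma, adjusted p = 0.0511), and with the replicate number as a block it passed (adjusted p = 0.0316, limma, range over alternatives 0.00145 to 0.135). In all it passed in 7 of 21 alternatives. The interaction was -4.09 (limma, adjusted p = 0.0654) with all livers, -3.06 without KO CT0 replicate 1 (adjusted p = 0.0143, limma), and -4.09 with the replicate block (adjusted p = 0.0439, limma, range over alternatives 0.0143 to 0.158). That interaction passed in 5 of 20 alternatives.

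Pnpla3 (chromosome 15, 83998246 to 84019942, plus strand) encodes a lipid droplet protein with lipase and acyltransferase activity. It was the least abundant member and passed the filter on low values only through the means of the WT groups and of KO at CT0. Its levels in WT were 1.15, 0.816 and 1.76 RPKM at CT0 and 0.214, 2.77 and 0.354 at CT12. KO livers stood at 4.92, 0.439 and 0.244 RPKM at CT0 and 0.105, 0.0814 and 0.0315 at CT12, the last 3 from 7, 5 and 2 reads. The livers at CT12 in KO were the lowest of all, and WT CT12 replicate 2 and KO CT0 replicate 1 were the highest, from 189 and 340 reads. Since 1 is added before the log, differences in so low a gene are understated: that between genotypes at CT12 was -0.78 (95% interval -1.94 to 0.38), and no Pnpla3 difference passed.

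The departure of a liver was measured as its log2(RPKM + 1) minus the mean of the other 2 livers of its group. That of KO CT0 replicate 1 was known when the genes were set. Its shares, medians and ranks are thus a description and not a test. In KO CT0 replicate 1 all 10 genes were above the other 2, and 8 of 10 by at least 1 log2 unit, as were 0.972% of all tested genes. The median departure of the 10 genes there was 2.16, against 0.05 for all genes. In WT CT12 replicate 2 all 10 were above as well, 2 of 10 by at least 1 log2 unit (0.472% of all genes), with a median of 0.80 against 0.004. In RPKM, KO CT0 replicate 1 over the mean of the other 2 was 14.4-fold for Pnpla3, 11.7-fold for Me1, 8.46-fold for Thrsp, 5.67-fold for Fasn and 5.33-fold for Acly. It was 4.82-fold for Acacb, 3.85-fold for Acaca, 3.19-fold for Acss2 and 2.0-fold for Mlxipl. Srebf1 was 1.31-fold, the smallest departure of the 10 in that liver. By log2 departure Me1 ranked 1 and Thrsp 3 among the 10799 genes. In WT CT12 replicate 2 the order differed, with 9.78-fold for Pnpla3, 3.19-fold for Fasn, 2.07-fold for Acacb and 1.78-fold for Srebf1, which lay above the 1.63-fold of Me1. For genes with several transcript entries the departure was alike in each, such as 5.33-fold to 5.44-fold over 4 entries of Acly and 1.31-fold to 1.32-fold over 3 of Srebf1. Of the 7 adipocyte markers, 2 (Fabp4 and Car3) were above 0 in each of these livers and the rest were at 0. A part of adipose tissue in the departures was not tested. The sources used here give no batch, date or feeding state by which these 2 livers could be compared with the rest.

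**Figure D3:**
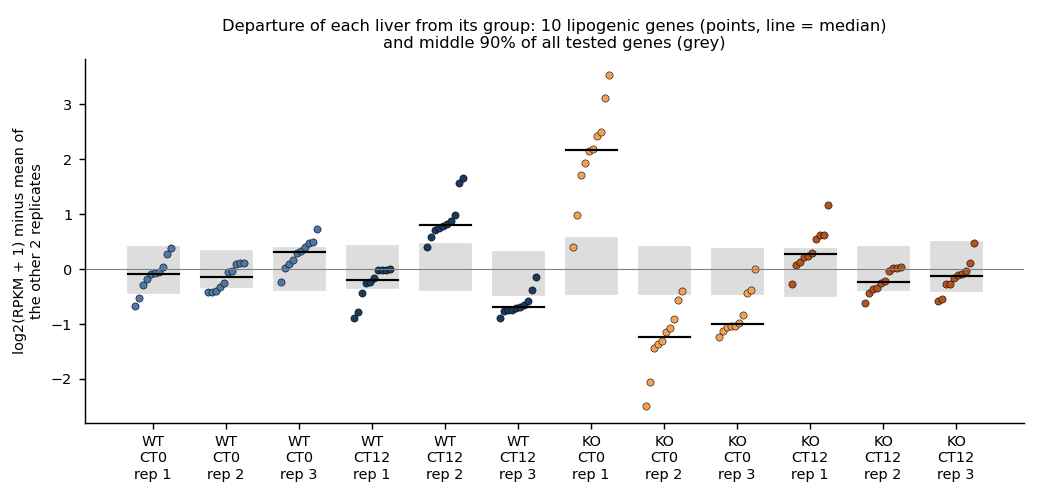
Log2(RPKM + 1) of each of the 10 genes minus the mean of the other 2 livers of its group, for each of the 12 livers; points are genes, lines their median, and grey boxes hold the middle 90% of all tested genes. Medians were 2.16 in KO CT0 replicate 1 and 0.80 in WT CT12 replicate 2, and between -1.23 and 0.31 in the other livers.

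Over the 12 livers the 10 genes tended to follow each other, but less so, and not in every pair, without KO CT0 replicate 1. Pearson's r between pairs of members had a median of 0.79 over the 12 livers (45 pairs, 0.29 to 0.96), and of 0.61 over 11 livers without KO CT0 replicate 1 (-0.37 to 0.95). These are descriptions over livers that share groups, and the highest liver weighs in each. With the mean of the members' z-scores, Fasn had an r of 0.98 and Thrsp of 0.73, the highest and the lowest of the 10. Among other genes, the 6 most like that mean over 12 livers were Rpia (0.96), Elovl6 (0.95), Slc26a1 (0.95), Khk (0.94), Gpam (0.94) and Rnf103 (0.92). Without KO CT0 replicate 1 their r was 0.82 to 0.87 over 11 livers. They then ranked from 12 (Rpia) to 35 (Rnf103) of 10789 other genes, so none stayed among the 6 most alike. Rpia encodes an enzyme of the pentose phosphate pathway, Khk the kinase of fructose, Gpam the first acyltransferase of glycerolipid synthesis and Elovl6 the elongase of palmitate. Elovl6 was at 16.7, 12.6 and 19.5 RPKM in WT at CT0, 29.4, 51.6 and 14.7 in WT at CT12, 185, 16.5 and 21.8 in KO at CT0 and 7.56, 5.15 and 6.79 in KO at CT12. Its 2 highest livers were again KO CT0 replicate 1 and WT CT12 replicate 2.

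Genes beside the members in the same metabolism were counted in lists that were set with earlier results known. Of the list of glucose entry and ChREBP partners, 9 of 9 genes were tested, and Pklr and Khk were among those at least 1 log2 unit higher in KO CT0 replicate 1, with a list median of 0.96 against 0.05 for all genes. Pklr, the liver pyruvate kinase and a known ChREBP target, was at 248, 51.9 and 58.99 RPKM in KO at CT0. In the list of citrate and NADPH supply, 2 of 10 tested genes (G6pdx and Pgd, of the oxidative pentose phosphate pathway) passed 1 log2 unit in that liver, with a median of 0.52. In desaturation and elongation 3 of 9 did (Scd1, Elovl5 and Elovl6). Scd1, the main desaturase of liver, was at 4066, 835 and 1322 RPKM in KO at CT0. In triglyceride synthesis and storage 2 of 16 did (Gpam and Lpin1). In the fasting response 2 of 14 did (Igfbp1 and Tat). The SREBP and LXR list, which holds the processing partners of SREBP, had none of 12 and a median of -0.09, and malonyl-CoA control had none of 9 and a median of -0.11.

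**Figure D4:**
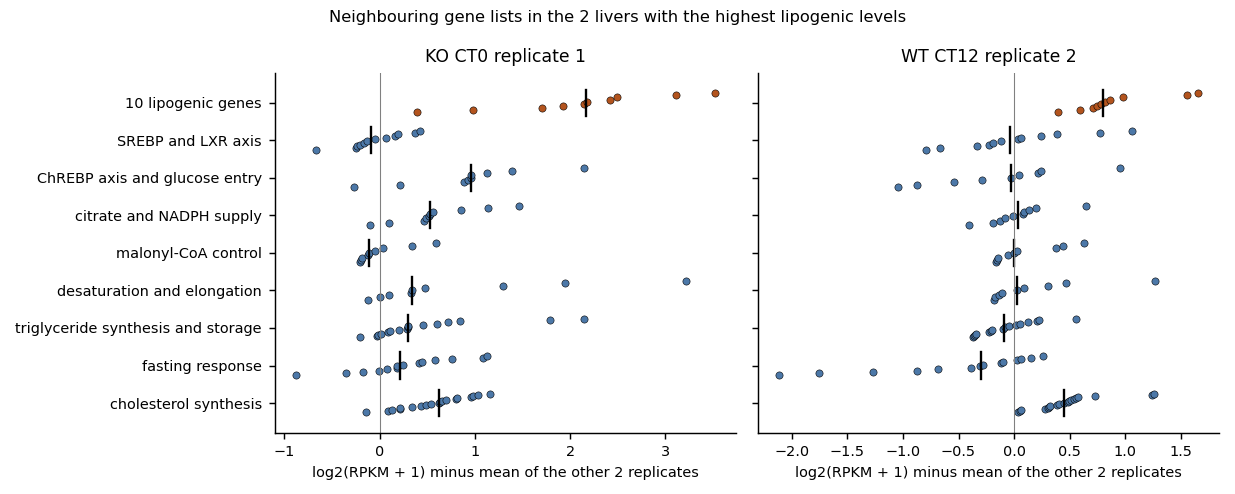
Departure in log2(RPKM + 1) from the mean of the other 2 livers of the group, for the 10 members and 8 lists of related genes in KO CT0 replicate 1 and WT CT12 replicate 2; points are genes and bars medians. In KO CT0 replicate 1 the members' median was 2.16 and the list medians lay between -0.11 and 0.96, and in WT CT12 replicate 2 cholesterol synthesis was at 0.45 and the fasting response at -0.29.

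Between genotypes, cholesterol synthesis, which SREBP-2 drives and which shares acetyl-CoA with the members, stood on the other side of 0 at CT12. Of its 19 genes 9 were higher in KO at CT12 and none lower (6.97% of all genes were called higher), and the median difference was 0.72. Hmgcs1, which makes the precursor of mevalonate, was at 32.5, 57.1 and 48.8 RPKM in WT and 186, 158 and 129 in KO at CT12, with no overlap (1.77, limma, adjusted p = 0.00115). Idi1, an isomerase of the route, was at 74.6, 117 and 91.2 and 187, 161 and 141 RPKM at CT12 (0.80, limma, adjusted p = 0.0105). Averaged over both times 11 of 19 were higher (7.44% of all genes) and none lower. All 19 were also above the other livers of the group in WT CT12 replicate 2, and 18 of 19 in KO CT0 replicate 1. Whether this list differed from the members was not tested.

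Calls of the other lists between genotypes at CT12 are given beside 6.97% of all genes called higher and 3.49% called lower. Of 12 genes of the SREBP and LXR axis 1 was higher in KO and none lower, and it was Insig2, whose protein retains the SREBP precursor in the endoplasmic reticulum. Insig2 was at 18.5, 14.02 and 28.1 RPKM in WT and 152, 184 and 281 in KO at CT12 (3.29, limma, adjusted p = 5.74e-06), while at CT0 it was at 173, 171 and 205 in WT and 229, 232 and 286 in KO. Of 9 genes of glucose entry and ChREBP, 1 was lower (Slc2a2, the glucose transporter of hepatocytes, -1.29, limma, adjusted p = 0.00933). In citrate and NADPH supply Cs, the citrate synthase, was higher (0.64). Of 9 of malonyl-CoA control 1 was lower (Prkaa2, a catalytic subunit of AMPK, -0.55). Of 9 of desaturation and elongation 2 were higher (Elovl3, 4.85, and Scd2, 1.04) and 1 lower (Fads2, -1.06). In triglyceride synthesis and storage 4 of 16 were lower and none higher, among them Fitm1 (-1.82) and Agpat6 (-0.53). In the fasting response 1 of 14 was higher (Pdk4, 1.26) and 4 were lower, among them Cpt1a (-0.52) and Acot1 (-1.70). For these lists as for the members, the call is an adjusted p under 0.05 in limma over all genes.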

How the data were processed

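Total RNA of 12 livers was sequenced with TruSeq RNA libraries. The authors deposited RPKM values (reads divided by transcript length and library depth) for 46585 transcripts per liver. The submitters' processing notes name TopHat2, bedtools 2.19.1 and mm9. The counting rule, annotation release and normalizing total are not given in the sources used here, so how reads shared by transcripts of a gene were split is unknown, and so is the effect on a transcript's level.

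The transcript with the highest mean was taken for each of 22322 symbols. Lengths and positions came from GENCODE vM1 on NCBIM37 (95.5% of transcripts). Depth was recovered from the steps in RPKM times length (95.65% to 97.13% of low values within 0.05 of a whole read). The 10799 genes that reached 1 RPKM on average in any group were analysed as log2(RPKM + 1) with limma 3.58.1 in R 4.3.3 (group means, eBayes with trend), with Benjamini-Hochberg adjustment and a threshold of 0.05. Samples were grouped by their titles, and all adjusted p-values are from limma. On simulated data, changes of 1 log2 unit were recovered for 93% of genes for KO against WT at either time, for 86% with time in WT, 91.5% in KO and 70.5% for the interaction (10640 to 10684 genes each). Changes of 0.5 log2 units were recovered for 28.5% and 42% of genes at CT0 and CT12, 34% in WT, 29.5% in KO and 0% for the interaction, and up to 6.35% of calls in these runs were false. The changed genes were drawn at random from the better expressed genes, each with its own noise, and recovery was not measured for the members. Standard errors of the members for KO against WT ran from 0.21 (Srebf1) to 0.74 (Me1). An uncalled member can thus differ by 1 log2 unit or more. Members and lists were chosen with earlier results of these data known. The named genes were the members, Arntl, up to 4 called genes per list with the smallest adjusted p, and the 6 genes most like the members. Genes named for a departure in 1 liver were chosen after their values were seen. Some called genes of the neighbouring lists are not reported here. Alternatives were a pseudocount of 0.1, other filters, quantile normalization, summed transcripts, sample weights, a replicate block, the compared groups alone, leaving out each liver and, added after seeing the data, leaving out 2 livers. Python 3.11.15 with pandas 2.3.3 and matplotlib 3.10.9 served for tables and plots.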

Additional observations from a re-analysis of the deposited data

Results flagged for a closer look

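For 3 genes of the neighbouring lists, and for none of the 10 members, the change from CT0 to CT12 differed between genotypes by a test of the interaction itself (KO change minus WT change, limma on log2(RPKM + 1)). Elovl3, an elongase of long fatty acids, had an interaction of 4.93 (limma, adjusted p = 7.46e-07), as its change was -3.54 in WT and 1.40 in KO. Insig2 had one of 2.85 (limma, adjusted p = 0.00187), with -3.16 in WT and -0.32 in KO. Agpat6, an acyltransferase of triglyceride synthesis, had one of -0.81 (limma, adjusted p = 0.0299), with 0.69 in WT and -0.12 in KO. The calls for Elovl3 and Insig2 passed in all 20 alternatives, and that for Agpat6 in 10 of 20 (limma, adjusted p from 0.0112 to 0.0852). It was lost without the filter on low values, without KO CT0 replicate 1 (-0.77, limma, adjusted p = 0.0634), without KO CT0 replicate 3, any WT CT0 replicate, WT CT12 replicate 3 or any KO CT12 replicate. Groups of 3 are too small for the test of single outlying values, so the departures of single livers are given without one.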

How the results depend on the processing

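With 3 livers a group, 1 liver can decide a call. Counts of members called are given here by alternative, beside 0 for KO against WT at CT0 (0 under all alternatives run), 3 at CT12, 0 with time in WT, 2 with time in KO, 0 for the interaction and 1 averaged over times. Leaving out single livers gave 1 to 5 at CT12, 0 to 2 in WT, 1 to 4 in KO, 0 to 1 for the interaction and 0 to 4 for the average. The 5 at CT12 and the 4 averaged came without KO CT0 replicate 1, whose spread enters the shared variance. The 1 at CT12 came without WT CT12 replicate 2, KO CT12 replicate 2 or KO CT12 replicate 3, and the 4 in KO without KO CT0 replicate 2. Without both KO CT0 replicate 1 and WT CT12 replicate 2, an alternative added after seeing the data, counts were 5 at CT12, 6 in WT, 4 in KO, 1 for the interaction and 4 averaged. No filter gave 2 at CT12, 1 in KO and 0 averaged, and at least 1 RPKM in every sample gave 1 in WT. Sample weights gave 2 in WT and 2 for the interaction, and fitting only the groups compared gave 2 in WT and 1 in KO. With the replicate number as a block there was 1 call in WT, 1 in KO and 1 for the interaction. Same-numbered samples deviated together by a mean r of 0.008 (-0.07 to 0.14, 18 pairs), so the numbers do not show a pairing. The remaining counts moved by no more than 1.5 times, and the causes of the changes were not tested beyond the alternatives' own construction. The 8 and 2 members that departed in KO CT0 replicate 1 and WT CT12 replicate 2 stayed within 1.5 times with a pseudocount of 0.1, quantile normalization or summed transcripts.

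Only differences that were not called changed sign. Without both high livers these were Fasn between genotypes at CT0 (-0.076), Acacb there (-0.44), Acaca (-0.22) and Srebf1 (-0.25) with time in WT, and the interactions of Pnpla3 (0.47) and Acss2 (0.46). Sample weights gave -0.089 for Acacb at CT0, summed transcripts gave -0.024 for Acaca with time in WT and -0.0050 for Acly at CT12, and quantile normalization gave -0.020 for Acly at CT12 and 0.0099 for Pnpla3 at CT0. Leaving out single livers moved the genotype difference at CT0 from -0.076 to 1.21 for Fasn, -0.44 to 0.67 for Acacb, -1.18 to 0.83 for Me1 and -0.72 to 0.40 for Pnpla3, and that at CT12 from -0.22 to 0.30 for Acly. The change with time in WT went from -0.77 to 0.076 for Fasn, -0.22 to 0.27 for Acaca, -0.25 to 0.17 for Srebf1 and -0.79 to 0.033 for Pnpla3. The averaged difference went from -0.48 to 0.21 for Fasn and -0.093 to 0.41 for Acaca, and the interaction from -0.74 to 0.26 for Acss2.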

Other observations

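The following genes lie outside the comparisons and were picked after their values were seen. In 3 of the 6 KO livers, 3 neighbouring genes of chromosome 12 on the plus strand (NCBIM37) were high together: Lrr1 (70269801 to 70279997), Klhdc1 (70342163 to 70385619) and Klhdc2 (70397668 to 70411674). Klhdc1 was at 0.0768, 0.241 and 114 RPKM in KO at CT0 and 0.476, 69.4 and 107 in KO at CT12, while the 6 WT livers had 0 to 1.34. Lrr1 was at 0, 0 and 60.97 RPKM in KO at CT0 and 0.185, 37.2 and 57.3 in KO at CT12, with 0 to 0.701 in WT. Klhdc2 was at 16.3, 16.00 and 172 RPKM in KO at CT0 and 20.1, 114 and 166 at CT12, with 13.6 to 19.7 in WT. KO CT0 replicate 1, the liver with the high lipogenic genes, was not among the 3 livers. The KO livers were thus not alike at this locus.

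Lars2 and Camk1d varied widely within every group. Lars2 was at 1288, 982 and 6.30 RPKM in WT at CT0, 1362, 828 and 148 in WT at CT12, 9.28, 268 and 1263 in KO at CT0 and 131, 5.70 and 772 in KO at CT12. Camk1d was at 3873, 3069.6 and 55.7 RPKM in WT at CT0, 3994, 2765 and 546 in WT at CT12, 71.8, 895 and 3873 in KO at CT0 and 445, 52.9 and 2314 in KO at CT12. Both were lowest in WT CT0 replicate 3, KO CT0 replicate 1 and KO CT12 replicate 2, of which KO CT0 replicate 1 had high and KO CT12 replicate 2 had low members.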
